A study of Mus musculus with 6 samples.

Results

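Complex I of the respiratory chain is built from subunits of both genomes, and the transcripts described here are those of its nuclear-encoded subunits in heart mitochondrial preparations from mice with and without Polrmt. Members were taken as every protein-coding mouse gene in the count files whose symbol starts with Ndufa, Ndufb, Ndufc, Ndufs or Ndufv followed by a digit. That gave 37 of the 39177 identifiers in the files, with 14 under letter A, 10 under B, 2 under C, 8 under S and 3 under V. The Ndufaf assembly factors were left out, and Ndufa11b, Ndufb4c and Ndufs6b matched the symbol but are not annotated as protein-coding. Ndufab1, the acyl carrier protein, is a subunit that this naming rule misses. Ndufa4, which it takes in, is now placed with complex IV, and Ndufa4l2 is the paralog of Ndufa4.

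RNA came from crude mitochondria of the hearts of C57BL/6N mice aged 3 to 4 weeks. The 3 controls carried Polrmt with exon 3 between loxP sites (L/L) and no cre, and are given the genotype Polrmt +/+ in the labels. The 3 knockouts carried the same alleles together with cre driven by the muscle creatine kinase promoter (L/L, cre) and are given as Polrmt -/-, so floxed Polrmt is common to all 6 animals. That promoter is active in heart and skeletal muscle fibres, and other cells of the heart are not expected to lose the gene. Polrmt, the RNA polymerase of mitochondria, was counted at 3, 2 and 1 in the controls and at 2, 5 and 1 in the knockouts. Counts for the whole gene at this depth do not resolve the deletion of exon 3, and the genotype labels were not checked by them.

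Complex I takes electrons from NADH and passes them through a flavin and a chain of iron-sulfur clusters to ubiquinone, while its membrane arm pumps protons. Its matrix arm holds the electron input (N) and quinone reduction (Q) modules, whose catalytic core subunits are all nuclear-encoded in mammals. The membrane arm has a core of mtDNA-encoded ND subunits, around which nuclear-encoded accessory subunits are assembled. Heart muscle is rich in this enzyme.

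The libraries held 3019615, 3234729 and 2867067 counts in controls 1, 2 and 3, and 1062030, 1090816 and 1227997 in knockouts 1, 2 and 3. Transcripts of mtDNA took 79.5 to 83.5% of the counts in controls and 21.1 to 25.8% in knockouts, and 5 nuclear loci that collect ribosomal RNA reads took most of the rest. The nuclear counts without those loci, on which all values were scaled, numbered 76949, 107675 and 109351 in controls and 126339, 143790 and 164004 in knockouts. The members together held 480, 632 and 768 counts in controls and 874, 951 and 1152 in knockouts. CPM below means counts per 1000000 of this scaled nuclear count. Reads carried no molecular identifiers, so intervals and limits made from counts cover counting error only. With 3 counts as the floor, a gene at 0 could still have up to 18.1 to 38.3 CPM, depending on the library.

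None of the nuclear-encoded complex I subunit transcripts with enough counts for the test passed it in either direction, and the accessory subunit Ndufa2, below that depth, was about 3.29-fold higher in knockouts on 47 counts in all. Of the 37 members, 25 were tested, and edgeR's quasi-likelihood test called 0 of them higher and 0 lower at a Benjamini-Hochberg adjusted p under 0.05. Over all 2294 genes tested, 16.9% were called, 9.02% higher and 7.89% lower. At an unadjusted p under 0.05 there were 2 members, 1 of them Ndufb9, beside 28.8% of all genes tested. Without knockout 1, 1 of the 26 members then tested was called lower, beside 11.5% of all genes called and 5.23% called lower in that fit. DESeq2 also called 0 of the 25, with 0.480 as the lowest adjusted p, against 7.41% of all genes. The fitted log2 fold changes, knockout over control, ran from -0.43 for Ndufv3 to 0.54 for Ndufa5 with a median of 0.16, beside a median of -0.01 over all genes tested. Values were above 0 for 19 members and below 0 for 6, against 49.5% of all tested genes above 0. The 95% intervals of 20 members lay within 1 log2 unit on both sides of 0, and 23 of the 25 held 0. Across the 25, the outermost interval ends were -1.09 and 1.15. Groups of libraries did not overlap for 1 member, Ndufb9, which was higher, whereas they did not overlap for 33.4% of all genes tested, 17.4% higher and 16.0% lower. These are transcripts in a bulk, crude preparation, in which fewer cells of a type and less RNA per cell cannot be told apart, nor can a change in transcript level and a change in what stays with the mitochondria.

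**Figure D1:**
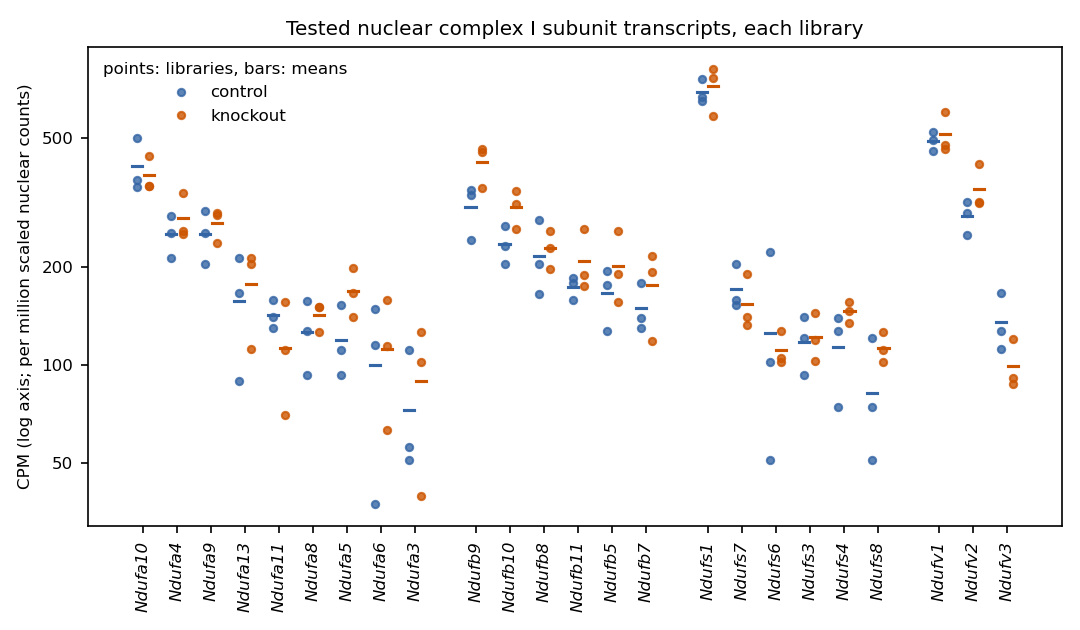
Level of 24 of the 25 tested members in every library, in CPM of scaled nuclear counts on a log axis, grouped by letter; points are libraries and bars are means of 3. The control and knockout points do not overlap for Ndufb9 and overlap for the other 23 genes.

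**Figure D2:**
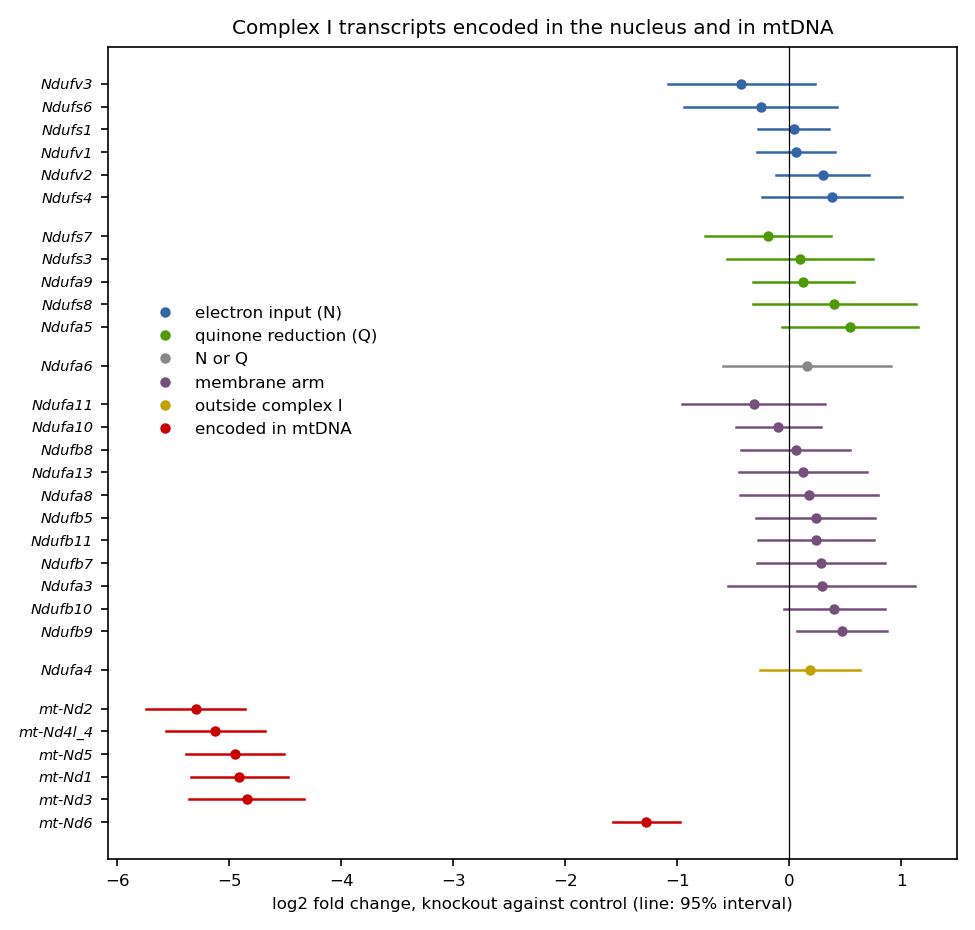
Fitted log2 fold change, knockout over control (x), of 24 tested members by arm and of the 6 mtDNA values of complex I, with lines as 95% intervals from edgeR's quasi-likelihood fit on 3 against 3 libraries. Of the members' intervals 23 hold 0, that of Ndufb9 lies above it, and the mtDNA values lie between -5.30 and -1.28.

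In the N module, where NADH is oxidised, 6 of 8 members were tested and their median log2 fold change was 0.05. Ndufv1 (ENSMUSG00000037916, GRCm38 chr19:4007384-4012806) encodes the flavin-bearing subunit that binds NADH. It stood at 524, 456 and 492 CPM in controls 1, 2 and 3 and at 603, 463 and 476 in knockouts 1, 2 and 3. Knockout 1 was the highest library, and the other 2 knockouts lay inside the control range. The log2 fold change was 0.06 ± 0.18 (SE, n = 3 and 3; interval -0.28 to 0.41; edgeR adjusted p = 0.858). It turned to -0.018 when the mtDNA genes entered the scaling, to -0.049 without knockout 1 and to -0.012 without control 2.

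Ndufv2 (ENSMUSG00000024099), the partner of Ndufv1 with an iron-sulfur cluster of its own, had 294, 317 and 251 CPM in controls and 317, 316 and 416 in knockouts. Knockouts 1 and 2 matched control 2, and knockout 3 was the highest. This gave a log2 fold change of 0.30 ± 0.21 (SE, n = 3 and 3; edgeR adjusted p = 0.364), and 0.16 without knockout 3 or 0.19 without control 3. Ndufv3 (ENSMUSG00000024038), a small accessory subunit attached to that pair, gave 128, 112 and 167 CPM in controls and 87.2, 91.1 and 121 in knockouts. Knockouts 1 and 2 were below all controls and knockout 3 lay between controls 1 and 2. Its log2 fold change of -0.43 ± 0.33 (SE, n = 3 and 3; edgeR adjusted p = 0.428) was the lowest of the tested members with all libraries in, within an interval from -1.09 to 0.23, and it was -0.25 without control 3.

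Ndufs1 (ENSMUSG00000025968), the large iron-sulfur subunit of the N module, had the most counts of any member, 514 or 10.6% of all member counts. It was measured at 651, 671 and 762 CPM in controls and 817, 764 and 585 in knockouts. The knockouts spanned the control range on both sides. Its interval, -0.28 to 0.36 around a log2 fold change of 0.04 ± 0.16 (SE, n = 3 and 3; edgeR adjusted p = 0.904), was the narrowest among the members. Without 1 library at a time the value ran from -0.049 (knockout 1 out) to 0.20 (knockout 3 out).

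Ndufs6 (ENSMUSG00000021606), a zinc-binding accessory subunit, had 51.1, 102 and 223 CPM in controls and 127, 105 and 102 in knockouts. Control 1 was below and control 3 above every knockout, on 4 and 24 counts. The fit gave -0.26 ± 0.34 on the log2 scale (SE, n = 3 and 3; edgeR adjusted p = 0.682), and without control 3 it was 0.44, against -0.57 without control 1. Ndufs4, whose loss is a common model of complex I deficiency in mice, had a mean of 114 CPM in controls and 146 in knockouts, and a log2 fold change of 0.38 ± 0.32 (SE, n = 3 and 3; edgeR adjusted p = 0.464), which was 0.11 without control 2 and 0.57 without control 3. Ndufa12, a late-joining subunit of this arm, was not tested, with 18 counts in controls and 32 in knockouts.

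The remaining N module member, Ndufa2 (ENSMUSG00000014294), an accessory subunit with a thioredoxin-like fold, fell below the count filter and was singled out after its values were seen. It had 2, 3 and 3 counts in controls and 10, 15 and 14 in knockouts, or 25.5, 27.9 and 27.9 CPM against 79.3, 105 and 84.4. All knockouts were above all controls. With each group's counts summed and scaled, knockout over control was 3.29, with an exact interval of 1.52 to 8.15. When the fit was run on the 6325 genes with a count in all 6 libraries, Ndufa2 had a log2 fold change of 1.73 ± 0.52 (SE, n = 3 and 3) and an edgeR adjusted p of 0.0200. It was then the 1 member called of 36 tested, beside 5.69% of all genes called and 3.35% called higher. The authors' deposited table, on the same samples, gives Ndufa2 a log2 fold change of 1.72 and a false discovery rate of 0.0120. There too it was the 1 member of 36 under 0.05, beside 5.32% of genes. Since the samples are the same, that call is no separate support. The call of Ndufa2 on the genes with a count in all 6 libraries rested on few counts. On that gene set the adjusted p was 0.0649, 0.0928 and 0.0751 without controls 1, 2 and 3 and 0.0820 without knockout 2, and with no count filter at all it was 0.0544. When library size was all counts, with TMM over all genes, Ndufa2 was the 1 member called of 30, beside 13.4% of all genes, but it passed the count filter there only through the knockouts, where it is high, so that call adds no support. On the genes with a count in all 6 libraries DESeq2 gave Ndufa2 no adjusted p. The Ndufa2 gene shares 66 exonic bases with Tmco6 on the opposite strand, which had 2 counts in all libraries together.

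In the Q module, which hands electrons to ubiquinone, all 6 members were tested and their median log2 fold change was 0.11. Ndufs7 (ENSMUSG00000020153), the core subunit with the last iron-sulfur cluster before ubiquinone, had 153, 158 and 204 CPM in controls and 190, 140 and 133 in knockouts. Knockouts 2 and 3 were below all controls and knockout 1 was within their range. On the log2 scale the fitted change was -0.19 ± 0.28 (SE, n = 3 and 3; edgeR adjusted p = 0.716), between -0.34 without knockout 1 and -0.051 without control 3. Ndufa5 (ENSMUSG00000023089), an accessory subunit at the matrix side, was at 153, 93.1 and 111 CPM in controls and 167, 140 and 199 in knockouts. Control 1 reached above knockout 2, and the other controls were below every knockout. Its log2 fold change, 0.54 ± 0.31 (SE, n = 3 and 3; interval -0.06 to 1.15; edgeR adjusted p = 0.234), was the highest of the 25. Among the other Q members, log2 fold changes were 0.09 for Ndufs3 and 0.40 for Ndufs8, both core subunits, and 0.13 for Ndufa9, an accessory subunit next to the quinone channel. None of these had groups that stood apart. Over the 7 catalytic core subunits of the N and Q modules, the median was 0.06, with 5 above 0 and 2 below.

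Ndufa6 and Ndufa7 belong to the matrix arm and are placed in N or Q depending on the source. Ndufa6, a small protein that binds the acyl carrier, had a log2 fold change of 0.16 ± 0.38 (SE, n = 3 and 3; edgeR adjusted p = 0.830), and -0.30 without control 2 or 0.63 without control 3. Ndufa7 was not tested, with 1, 11 and 14 counts in controls and 7, 11 and 12 in knockouts.

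In the membrane arm, 11 of 19 members were tested, with a median log2 fold change of 0.24, 9 above 0 and 2 below. All 6 tested Ndufb genes, which encode accessory subunits of this arm, were above 0, with a median of 0.26 and a range of 0.06 to 0.47. Ndufb9 (ENSMUSG00000022354, GRCm38 chr15:58933756-58939488, plus strand) belongs to the distal end of the arm. It stood at 345, 242 and 334 CPM in controls and 452, 351 and 464 in knockouts. Every knockout was above every control, with knockout 2 and control 1 close together. The log2 fold change was 0.47 ± 0.20 (SE, n = 3 and 3; interval 0.07 to 0.87) and missed the threshold, with an edgeR adjusted p of 0.0940. Without control 2, the lowest library, it was 0.29.

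Ndufb10 (ENSMUSG00000040048), a subunit with disulfide bonds that is imported into the intermembrane space, had 268, 205 and 232 CPM in controls and 262, 344 and 313 in knockouts. Knockout 1 lay just under control 1 and the other knockouts were above all controls. Its fitted log2 fold change was 0.40 ± 0.23 (SE, n = 3 and 3; edgeR adjusted p = 0.229). Ndufb11 (ENSMUSG00000031059), a single-pass membrane subunit encoded on chromosome X, stood at 179, 158 and 186 CPM in controls and 262, 189 and 175 in knockouts. Knockout 1 was high and knockout 3 was inside the control range. Its log2 fold change was 0.24 ± 0.26 (SE, n = 3 and 3; edgeR adjusted p = 0.597), and it went from 0.069 without knockout 1 to 0.38 without knockout 3. Ndufb5, Ndufb7 and Ndufb8 had 0.24, 0.28 and 0.06.

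Among the A subunits of the membrane arm, Ndufa8 (ENSMUSG00000026895), which faces the intermembrane space, was at 128, 93.1 and 158 CPM in controls and 151, 126 and 151 in knockouts. The knockouts lay within the control range. A log2 fold change of 0.18 ± 0.31 was fitted (SE, n = 3 and 3; edgeR adjusted p = 0.763), and -0.048 without control 2 against 0.38 without control 3. Ndufa3, Ndufa10, Ndufa11 and Ndufa13 ran from -0.32 for Ndufa11 to 0.29 for Ndufa3. The smallest and largest values here had wide intervals, that of Ndufa3 the widest of all tested members, from -0.55 to 1.13.

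Ndufa4 (ENSMUSG00000029632), counted here by name although its protein is placed with complex IV, had 255, 214 and 288 CPM in controls and 254, 259 and 338 in knockouts. Knockouts 1 and 2 were within the control range. In the fit this was a log2 fold change of 0.18 ± 0.23 (SE, n = 3 and 3; edgeR adjusted p = 0.650). It dropped to 0.041 without control 2 and to 0.043 without knockout 3, and was 0.29 without control 3. Its paralog Ndufa4l2, known as a gene induced by low oxygen, was near the limit of detection at 1, 0 and 4 counts in controls and 1, 3 and 2 in knockouts. No difference was detectable in it at this depth.

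The 12 untested members were Ndufa1, Ndufa2, Ndufa4l2, Ndufa7, Ndufa12, Ndufb2, Ndufb3, Ndufb4, Ndufb6, Ndufc1, Ndufc2 and Ndufs5, with 11 to 56 counts each over all 6 libraries. Together they held 168 counts in controls and 292 in knockouts, a scaled ratio of 1.17 with an exact interval of 0.967 to 1.43. Ndufa2, singled out for its values, alone held 8 of these counts in controls and 39 in knockouts. The interval held 1 for 11 of the 12, the exception being Ndufa2. Next to it in size was Ndufb6, a subunit of the distal membrane arm, with 4, 2 and 4 counts in controls and 5, 10 and 13 in knockouts, at a ratio of 1.89 (0.891 to 4.36). Ndufc1, with 2, 2 and 4 against 4, 7 and 9 counts, had a ratio of 1.69 (0.712 to 4.43). Ndufc2, the other C subunit, had 0.982 (0.553 to 1.77), so neither member of that letter differed by more than its counting error.

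Summed counts use every member, tested or not. The members took 0.624, 0.587 and 0.702% of the nuclear counts without the 5 loci in controls and 0.692, 0.661 and 0.702% in knockouts, 0.638 ± 0.0589% against 0.685 ± 0.0213% (SD, n = 3 each). The groups overlapped, control 3 being as high as knockout 3. By letter, the B subunits took 0.146, 0.126 and 0.153% in controls and 0.167, 0.179 and 0.178% in knockouts. The A subunits had 0.189 ± 0.0241% against 0.205 ± 0.0161% and the S subunits 0.205 ± 0.0227% against 0.197 ± 0.0199% (SD, n = 3 each), and for both the groups overlapped.

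Every knockout was thus above every control in the summed B subunits, at 0.142 ± 0.0137% against 0.175 ± 0.0068% (SD, n = 3 each). This holds for the share without the ribosomal RNA loci. With those loci in the divisor, control 3 lay above knockout 1 and the groups overlapped. Without Ndufb9 the other 9 gave 0.110, 0.102 and 0.120% in controls and 0.122, 0.145 and 0.131% in knockouts, which also did not overlap. All 10 B members had a scaled count ratio above 1, among 27 of the 37 members. On the genes with a count in all 6 libraries the fitted change was above 0 for 10 of 10 B members. In that fit it was above 0 for 28 of the 36 members tested and for 50.2% of all genes. No single B member passed the test, and the sums were given no test of their own.

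**Figure D3:**
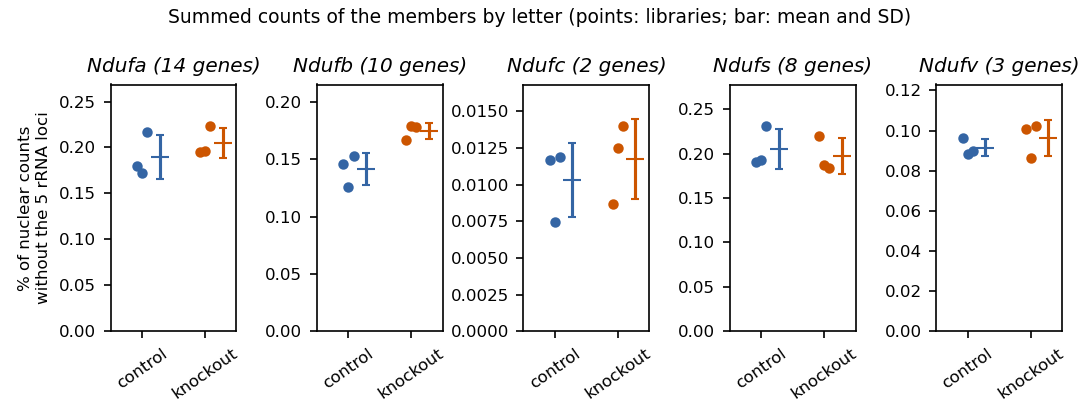
Summed counts of the members of each letter as a percentage of nuclear counts without the 5 ribosomal RNA loci, for each library; points are libraries and bars are the mean ± SD of 3, each panel with its own axis from 0. The groups do not overlap for letter B and overlap for letters A, C, S and V.

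Lists of cell type markers were read in the same preparations. Heart muscle markers had 4 of 8 called lower, at a summed level of 65856 to 78777 CPM in controls and 62162 to 67304 in knockouts. Fibroblast markers had 1 of 6 called lower (10359 to 11048 against 9049 to 10517 CPM), and smooth muscle and pericyte markers 2 of the 4 tested (1812 to 2120 against 1071 to 1613 CPM). Both macrophage markers that could be tested were called lower, and their list of 6 summed to 540 to 702 CPM in controls and 214 to 277 in knockouts. Endothelial markers had 0 of 5 called by edgeR (1644 to 1865 against 1229 to 1507 CPM) and red blood cell markers 0 of 4 (857 to 1877 against 932 to 1682 CPM). Of 4 adipocyte markers, Adipoq, Plin1 and Lep were at 0 in every library. The part of these differences in the values of the complex I subunits was not tested.

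Ratios between summed counts of the same library do not depend on the scaling. Members over the nuclear subunits of complexes II to V gave a log2 ratio of -1.72, -1.79 and -1.63 in controls and -1.59, -1.60 and -1.66 in knockouts. The difference was 0.09, and control 3 lay inside the knockout range. The B subunits over the same denominator were at -3.82, -4.00 and -3.83 in controls and -3.64, -3.48 and -3.64 in knockouts, with every knockout above. The S subunits gave -3.35 ± 0.11 (SD, n = 3) in controls against -3.42 ± 0.18 (SD, n = 3) in knockouts, with overlap. All members over complex III alone gave 0.96, 0.89 and 0.95 in controls and 1.11, 1.09 and 1.03 in knockouts, without overlap. Over complex II, IV or V alone the groups overlapped.

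Within complex I, the 7 core subunits over the B subunits had a log2 ratio of 0.79, 0.99 and 0.79 in controls and 0.76, 0.39 and 0.45 in knockouts. The groups did not overlap, although knockout 1 came close to controls 1 and 3. The S subunits, which share 5 genes with that core, over the B subunits gave 0.39, 0.61 and 0.60 in controls and 0.40, 0.060 and 0.049 in knockouts, and these groups overlapped. The Q module over the membrane arm gave -0.80, -0.76 and -0.83 in controls and -0.86, -1.20 and -1.08 in knockouts, again without overlap. For the N module over the membrane arm, -0.39 ± 0.05 and -0.45 ± 0.15 (SD, n = 3 each), the groups overlapped.

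Levels can be compared between genes only per length, and were divided here by the kilobases of the principal transcript. In controls they ran from 17.8 CPM per kb for Ndufa4l2 to 559 for Ndufa4, with a median of 154 over the 37 members and of 174 in knockouts. The 6 members with the highest level per kb were the same in both groups, among them Ndufa4, Ndufb9, Ndufb10, Ndufb8 and Ndufv1. Ndufb9 had 436 ± 80.3 CPM per kb (SD, n = 3) in controls against 600 ± 88.6 (SD, n = 3) in knockouts. Ndufs1, first by counts, had 268 ± 22.8 CPM per kb in controls (SD, n = 3), over a principal transcript of 2590 bases. Across the 37 members Pearson's r between the log2 group means was 0.93, a description over genes that share the same libraries.

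**Figure D4:**
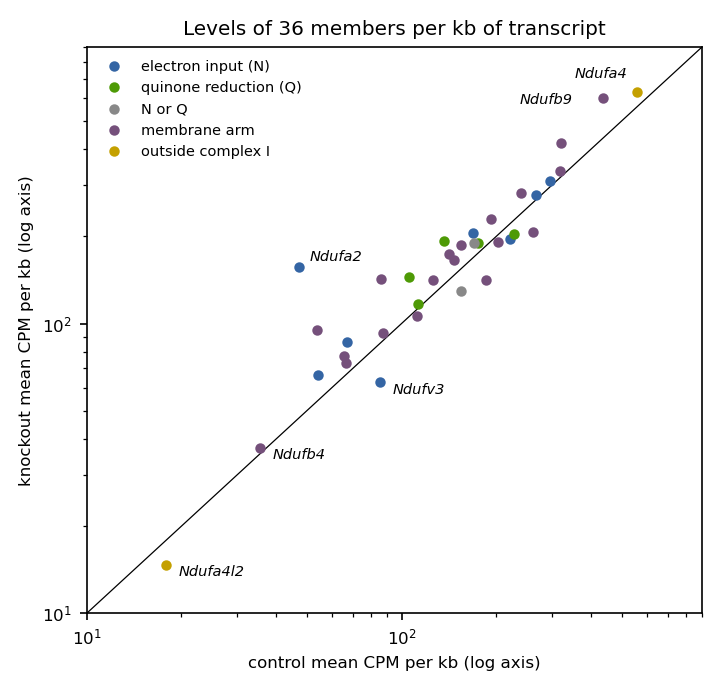
Mean level of 36 of the 37 members in controls (x) and knockouts (y), in CPM per kb of principal transcript on log axes, coloured by arm; the line marks equal levels. Ndufa2, at 47.4 against 157, is the point farthest above the line.

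The mtDNA-encoded subunits of the same complex were given as 6 values, since mt-Nd4l and mt-Nd4 share 1, and all 6 were lower in knockouts. The log2 fold changes relative to nuclear transcripts were -5.30 for mt-Nd2, -5.12 for mt-Nd4l and mt-Nd4, -4.95 for mt-Nd5, -4.91 for mt-Nd1 and -4.84 for mt-Nd3. mt-Nd6, encoded on the opposite strand to the others, was at -1.28 (edgeR adjusted p = 7.3e-11). For each count of a nuclear-encoded member there were 343, 285 and 204 counts of mtDNA-encoded subunits in controls and 8.28, 7.62 and 9.23 in knockouts. The groups did not overlap in this ratio.

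Other genes around the complex came from lists of the pathway. Ndufab1, counted at 8, 7 and 12 in controls and 15, 22 and 17 in knockouts, had a log2 fold change of 0.43 ± 0.35 (SE, n = 3 and 3; edgeR adjusted p = 0.457), from 0.18 without control 2 to 0.60 without control 3. The 17 assembly factors in the files, which build the complex and do not stay in it, were all below the count filter. Control libraries held 29, 47 and 51 counts of them in sum and knockout libraries 68, 88 and 88. As a share of nuclear counts this was 0.0427 ± 0.0046% against 0.0562 ± 0.0043% (SD, n = 3 each), without overlap. Single factors went both ways, on few counts. Mean CPM in controls and knockouts was 48.8 and 91.5 for Acad9 and 31.4 and 68.7 for Ndufaf1. It was 64.7 and 45.0 for Ndufaf4 and 27.1 and 14.0 for Ndufaf7. Among nuclear subunits of the other complexes, 0 of 4 tested genes of complex II and 0 of 9 of complex III were called.

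In complex IV, 1 of 12 was called, lower: Cox7a1, the muscle form of a small subunit, at 345, 270 and 214 CPM in controls and 87.2, 140 and 169 in knockouts, with a log2 fold change of -0.99 (edgeR adjusted p = 0.0032). In complex V, 3 of 14 were called, all higher, of which Atp5f1, a stator subunit, had a log2 fold change of 0.61 (edgeR adjusted p = 0.0059) and Atp5g1, a subunit of the rotor ring, 0.59 (edgeR adjusted p = 0.0275). Of 10 nuclear regulators of oxidative phosphorylation genes, 4 were tested and 0 were called. Their log2 fold changes ran from -0.02 to 0.64.

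The members lie on 15 chromosomes. For 9 of the 37 (24.3%), another protein-coding gene on the opposite strand started within 1000 bases upstream of the member's own start. This compares with 6.79% of 21290 protein-coding genes, and opposite-strand starts downstream of a gene's start were not counted. Ndufb9 and Tatdn1 start 18 bases apart, and Ndufa7 and Rps28 start 10 bases apart. Near-identical copies elsewhere in the genome, at 97% identity or more over at least 100 bases, exist for Ndufa12, Ndufb4, Ndufs3 and Ndufs5, so counts of these 4 are uncertain. The copy of Ndufa12, Gm15920, had 40 counts beside the 50 of Ndufa12 itself. Exonic bases were shared with another gene by 16 members, and no source used here says how the counting treated strand.

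Promoters of 32 members were found among RefSeq sequences of GRCm38.p6, from 250 bases before the start of transcription to 50 after it. Those without an entry included Ndufa2, Ndufa4l2, Ndufb9 and Ndufs1. Of 9 motif spellings searched on both strands, the 2 that follow were each in 7 of the 32 (21.9%). The NRF1 motif, named for a nuclear respiratory factor and searched as GCGCA, any base and GCGC, was in 7.17% of 17492 coding genes, and among members in Ndufa5, Ndufa6, Ndufa8, Ndufa11, Ndufb4, Ndufs5 and Ndufs6. The YY1 motif AAGATGGC was in 3.57% of coding genes, and in the 7 members it lay 23 to 39 bases after the start. The ETS motif CCGGAAG was in 12.5% of members and 12.9% of coding genes, and the oestrogen-related receptor motif CAAGGTCA in 3.13% and 1.56%. A match is a description of letters and not a binding site.

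To show what the NRF1 motif looks like in this family, the bases before the start of Ndufa11 and Ndufs5, on the coding strand and outside any annotated exon, are printed with the motif in capitals. Ndufa11 (chr17:56717686-56717761, plus strand) is the 1 member with the stricter spelling that reads the same on both strands, and Ndufs5 (chr4:123718203-123718302, minus strand) has a looser one.
Ndufa11: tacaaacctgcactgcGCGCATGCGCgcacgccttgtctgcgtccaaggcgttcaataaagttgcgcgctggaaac
Ndufs5: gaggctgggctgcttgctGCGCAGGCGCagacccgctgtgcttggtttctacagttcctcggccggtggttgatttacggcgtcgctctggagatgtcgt
Both belong to the membrane arm. Ndufa11, a multi-pass subunit at the junction of the membrane modules, had 140, 158 and 130 CPM in controls and 111, 70.1 and 157 in knockouts, and Ndufs5, on the intermembrane space side, had 3, 2 and 5 counts in controls and 4, 6 and 8 in knockouts. The groups overlapped for both.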

How the data were processed

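RNA-seq counts from 6 libraries of crude heart mitochondria, each taken as 1 mouse, were analysed. Per the labels' protocols, RNA was made with miRNeasy and libraries with TruSeq, sequenced paired-end on a MiSeq. GRCm38 is the build per the submitters' processing notes, which also name HISAT 0.1.6, edgeR 3.11.2, featureCounts 1.3.5-p4 and R 3.2.0. Their roles, the strand setting and the handling of multiply aligned reads are not stated there. Raw counts for each gene were deposited, 1 file a library. A table deposited by the authors lists log2 fold changes, average log2 CPM, a likelihood ratio score, p-values and false discovery rates, per the file headers. The authors' normalised files were not used, since their method is not given.

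Symbols came from GENCODE M21 (37656 nuclear identifiers with a symbol, 1486 without). The members and lists were chosen with earlier results of these data known. Library size was the nuclear count without Gm42418, Lars2, Gm23935, Gm15564 and Mir6236, with TMM factors from nuclear genes (0.984 to 1.02). Genes passing filterByExpr (minimum count 10, minimum total 15) numbered 2294, of which 18 were mtDNA values. The groups were compared by the robust quasi-likelihood test of edgeR (4.0.16, R 4.3.3), 2-sided, with Benjamini-Hochberg adjustment over all 2294 and a threshold of 0.05. SE is the size of the log2 fold change divided by the square root of F. DESeq2 1.42.0, other scalings and filters, a replicate block and the fit without each library were alternatives. The fit was also run on simulated counts, with the same dispersion for all genes and equal mtDNA levels in both groups. That run does not cover the difference in mtDNA counts between the groups here. Ratios of summed counts have exact 95% binomial-based intervals on scaled totals.

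Members given with values in every library were those called and, in each letter, the 3 tested ones with the highest mean CPM per kb of exon; Ndufa2, Ndufs1, Ndufa11 and the untested ones shown by counts were added after their values were seen. The values of 1 member are not reported here. In other lists up to 2 called genes were named, those with the lowest adjusted p. Replicate numbers are shared by the groups' titles, but no source ties them to a shared litter or day.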

Additional observations from a re-analysis of the deposited data

How the results depend on the processing

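Under other settings there were 177 refitted values of the named genes (12 members, without the mtDNA subunits). Of these, 152 kept their direction and their side of the threshold. Another 8 kept their direction and gained a call, all with scaling to all counts without TMM. A further 8 lost a call, all Ndufa2, against its call on the genes with a count in all 6 libraries. The other 9 changed sign, among them Ndufs6, Ndufs7 and Ndufv3, which also gained a call with scaling to all counts. Scaling to all counts without TMM, where mtDNA sets the library size, moved the median of all tested genes to 2.06, called 30 of 30 tested members higher and gave a members' median of 2.11. It turned the log2 fold changes of Ndufs6 to 1.71, Ndufs7 to 1.79, Ndufv3 to 1.55 and mt-Nd6 to 0.75, which follows from the divisor. The genes with a count in all 6 libraries gave 1 of 36 members called higher (Ndufa2). TMM over all genes also gave 1, of 30, but Ndufa2 passed the count filter there through its knockout counts alone, so that call is no support for the other. Ndufv1 changed sign to -0.018 with TMM over all genes, to -0.037 with all nuclear counts as library size, and to -0.012 and -0.049 without control 2 and knockout 1. Ndufv1 reached 0.14 without another library. Without each library in turn Ndufa8 ranged from -0.048 (control 2 left out) to 0.38 and Ndufs6 from -0.57 to 0.44 (control 3 left out). The cause of these changes was not tested. Leaving out each library in turn gave 0 members called higher, 0 to 1 lower (without knockout 1) and a members' median from 0.024 (without control 2, on 28 members) to 0.26. The same gave a range of 0.0221 to 0.0798 for the difference in the members' share of nuclear counts (0.0475 percentage points with all libraries) and of 0.06 to 0.14 for the log2 ratio to complexes II to V. With the 5 ribosomal RNA loci in the divisor, the difference in share was 0.00029 percentage points.

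The replicate block called 0 members and 391 genes, against 388 without it. Same-numbered libraries correlated in their deviations at 0.02, 0.02 and 0.07, and control 2 correlated best with knockout 1, so the numbers were not used as pairs. Fits without each library on the genes with a count in all 6 libraries, and DESeq2 on that set, were chosen after seeing the data. Depth limits these results: with 11 to 56 counts, 12 members went untested, and the median width of the members' 95% intervals was 1.12 log2 units, against 1.21 over all genes tested.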
